A study of Homo sapiens with 12 samples.

Results

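The integrin subunit genes used by epithelial cells were followed through RNA-seq of prostate cancer cells with altered GALNT7. The 10 genes were taken by symbol as a list of subunits known from epithelia, chosen with earlier results of these data known. The 5 alpha subunit genes are ITGA2, ITGA3, ITGA5, ITGA6 and ITGAV, and the 5 beta subunit genes are ITGB1, ITGB4, ITGB5, ITGB6 and ITGB8. They are 10 of the 26 annotated integrin subunit genes and of the 59424 genes in each deposited table. All 10 have a row in both tables, and 9 passed the filter on low values in each cell line.

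GALNT7 is an enzyme that adds N-acetylgalactosamine to proteins in O-linked glycosylation, and the study asked what its level does in prostate cancer cells. CWR22Rv1 and DU145 are established lines of human prostate cancer cells. CWR22Rv1 cells carried a lentiviral shRNA against GALNT7 (GALNT7 KD) or a control shRNA (shControl), and DU145 cells carried a lentiviral GALNT7 open reading frame (GALNT7 OE) or the control vector (OEControl). Each of the 4 groups had 3 biological replicates, making 12 libraries. The lines were stable transductants, and the sources used here do not say whether they were clones or pools, or whether the replicates were separate transductions. The 2 tables were scaled separately, so levels were compared only within a cell line.

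Integrins are receptors made of an alpha and a beta chain that span the membrane, bind matrix proteins outside the cell and are tied to actin or keratin filaments inside it. The alpha chain largely sets the ligand. ITGB1 pairs with most alpha chains, ITGB4 pairs only with ITGA6 and anchors hemidesmosomes to laminin, and ITGB5, ITGB6 and ITGB8 pair with ITGAV. Integrins carry many sugar chains, but the measurements here are of mRNA and say nothing of protein or its glycans.

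The bases upstream of the 3 members with the largest changes in DU145 cells are shown first, because these genes carry the main result below. They come from RefSeq windows (GRCh38.p14) of the 250 bases before a transcription start, of which only the bases before the gene's first base in GENCODE 29 are printed. RefSeq windows were matched for 8 of the 10 members, all but ITGA3 and ITGB4. For ITGB8 the RefSeq start lies 198 bases past the GENCODE gene start, which leaves 52 bases at chr7:20330650-20330701, and for ITGA2 it lies 26 bases past it, which leaves 224 bases at chr5:52989102-52989325. ITGA6 has 2 windows, and the upstream one is shown whole, at chr2:172427086-172427335. All 3 are on the plus strand, read 5′ to 3′, with matches to the motifs named after them in capitals.
ITGB8: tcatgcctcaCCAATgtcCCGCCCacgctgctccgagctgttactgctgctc
ITGA2: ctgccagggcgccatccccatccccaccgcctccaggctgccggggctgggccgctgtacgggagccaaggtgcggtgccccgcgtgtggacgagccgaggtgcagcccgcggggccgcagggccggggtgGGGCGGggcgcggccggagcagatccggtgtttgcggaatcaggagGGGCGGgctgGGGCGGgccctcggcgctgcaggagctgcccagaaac
ITGA6: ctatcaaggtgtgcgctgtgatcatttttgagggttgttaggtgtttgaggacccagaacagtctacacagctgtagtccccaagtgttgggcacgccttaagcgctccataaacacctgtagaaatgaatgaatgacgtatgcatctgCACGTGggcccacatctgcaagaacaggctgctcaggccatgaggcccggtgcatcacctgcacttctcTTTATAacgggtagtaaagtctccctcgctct

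Motifs were searched on both strands. The ITGB8 bases hold 1 CCAAT box (CCAAT, in 6.35% of the same stretch of all 34943 RefSeq windows) and 1 GC box (GGGCGG, here as its reverse complement CCGCCC, in 9.09%). The ITGA2 bases hold 3 GC boxes, and 39.3% of windows hold at least 1 over that length. The ITGA6 bases hold 1 E-box (CACGTG, in 6.32% of windows) and 1 match to TATAAA (here as its reverse complement TTTATA, in 10.8%). Their GC content is 61.5% for ITGB8, 77.2% for ITGA2 and 50.8% for ITGA6, against medians of 53.8%, 57.6% and 58.0% over the same stretches. These stretches are placed by the RefSeq start. For ITGB8 they are thus the 52 bases of each window farthest from that start, although its own bases adjoin the GENCODE gene start. The AP-1 motif TGACTCA, the cyclic AMP response element TGACGTCA and the E2F motif TTTNGCGC, in 4.22%, 1.63% and 1.49% of whole windows, have no match in any of the 3. A match describes these letters only and is no measurement of a bound factor.

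GALNT7 itself was measured as a check of the labels. In CWR22Rv1 cells its normalised count, which is reads divided by a size factor of the library, was 861.5, 1042 and 1093 in shControl and 480.5, 501.4 and 399.7 in GALNT7 KD (log2 fold change -1.11, limma adjusted p=0.0051). In the DU145 line the counts were 1051, 928 and 913 in OEControl and 1988, 2221 and 2334 in GALNT7 OE (log2 fold change 1.18, limma adjusted p=8.0e-05). Depth recovered from the values was 18364512 to 22264533 reads a library in CWR22Rv1 and 21628718 to 24356910 in DU145. The epithelial markers EPCAM, CDH1, KRT8 and KRT18 were detected in both lines. The summed level of 5 markers of fibroblasts, leukocytes and endothelium (LUM, DCN, COL1A2, PTPRC and PECAM1) was 212 to 272 in shControl and 627 to 724 in GALNT7 KD. LUM made up most of this sum, at a mean of 225 and 626. DCN and COL1A2 added little beside it, and the means of PTPRC and PECAM1 were below 1. In DU145 this sum was 5.73 to 12.1 in OEControl and 3.01 to 56.6 in GALNT7 OE, with LUM at 0 in all 6 libraries. The part of LUM-expressing cells in the CWR22Rv1 values was not tested. In bulk samples, fewer cells of a type and less RNA per cell cannot be told apart.

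In DU145 cells with GALNT7 OE, most of these integrin genes were expressed at a lower level. Of the 9 tested, 7 fell, 1 rose (ITGA6) and 1 did not pass the threshold (ITGA5). The largest fall was in ITGB8, to a level 7.19-fold lower, and the next in ITGA2, 3.21-fold lower, while ITGA6 was 1.96-fold higher. A call here is a limma adjusted p under 0.05 over all 18705 genes tested. GALNT7 OE cells differed from OEControl cells at 43.5% of all genes tested, 22.9% higher and 20.5% lower, so the 8 of 9 called are to be read against that share. The share was higher among better measured genes. With the filter raised to a mean of at least 20, which keeps these 9, 7914 of 15552 genes were called. The groups did not overlap for 8 of 9 members, against 55.3% of all genes tested. The median log2 fold change of the 9 was -0.52, beside -0.011 for all genes.

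**Figure D1:**
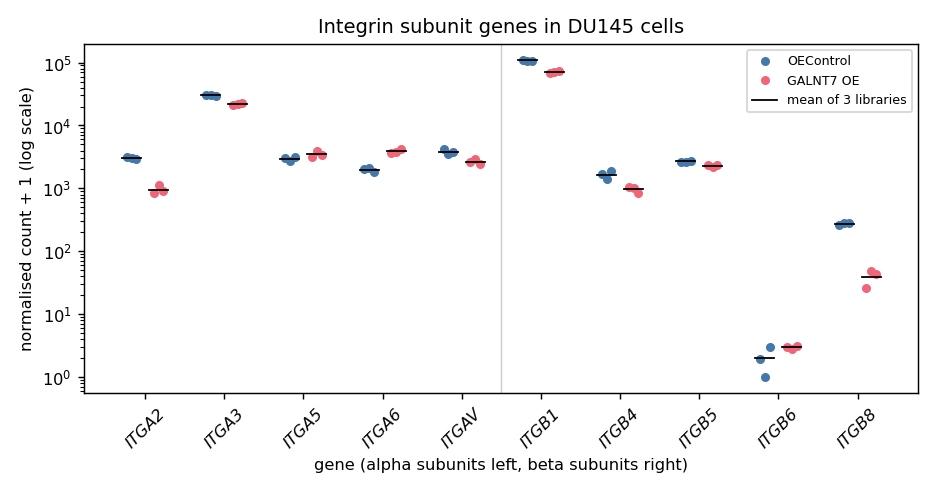
Normalised count plus 1 (log scale) of the 10 integrin genes in each DU145 library, alpha subunits on the left and beta subunits on the right. Points are single libraries of OEControl and GALNT7 OE cells and bars are means of 3. ITGA2 and ITGB8 sit far below their controls in GALNT7 OE, ITGA6 sits above, and ITGB6 is at 2.10 normalised counts or less throughout.

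Among the alpha subunits, ITGA2, the collagen-binding partner of ITGB1, lies on chromosome 5 of GRCh38 from 52989326 to 53094779. Its normalised count was 3156, 3044 and 2896 in the OEControl libraries and 831, 1127 and 897 in the GALNT7 OE libraries. All 3 GALNT7 OE libraries lay far below the lowest control. The mean went from 3032 ± 131 to 952 ± 156 (SD, n=3), which is a log2 difference of -1.68 (SE 0.114, limma adjusted p=5.8e-05).

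ITGA6, the laminin receptor chain that pairs with ITGB1 or ITGB4, lies on chromosome 2 from 172427354 to 172506282 and was the 1 member that rose. It measured 2035, 2146 and 1813 in OEControl and 3711, 3835 and 4162 in GALNT7 OE, so every GALNT7 OE library was above every control. The mean went from 1998 ± 170 to 3903 ± 233 (SD, n=3), which is a log2 difference of 0.97 (SE 0.0776, limma adjusted p=1.2e-04). ITGA3, the other main laminin receptor chain of epithelia, went the other way. Its counts were 30391, 30810 and 29205 in OEControl and 21535, 21918 and 23157 in GALNT7 OE, a log2 fold change of -0.44 (SE 0.0376, limma adjusted p=1.5e-04), without overlap.

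ITGAV, which binds RGD-containing ligands such as vitronectin, fell from 4199, 3533 and 3734 in OEControl to 2629, 2962 and 2430 in GALNT7 OE. The groups did not overlap, and the log2 fold change was -0.52 (SE 0.0929, limma adjusted p=0.0042). ITGA5, the fibronectin receptor chain, measured 3086, 2712 and 3161 against 3113, 3926 and 3392. These ranges overlapped, and the log2 fold change of 0.22 (95% interval -0.02 to 0.45, limma adjusted p=0.12) did not pass the threshold.

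Among the beta subunits, ITGB1 is the shared partner of ITGA2, ITGA3, ITGA5 and ITGA6 and was the member with the highest count. It measured 110378, 107723 and 106111 in OEControl and 67785, 70567 and 73848 in GALNT7 OE, without overlap. The mean was 1.53-fold lower, a log2 fold change of -0.61 (SE 0.0346, limma adjusted p=2.6e-05). After quantile normalisation of the 6 libraries the size of this fall was smaller, at -0.33 (adjusted p=0.035).

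ITGB8, which with ITGAV binds latent TGF-beta, lies on chromosome 7 from 20330702 to 20415754. It measured 258, 282 and 279 in OEControl and 25.1, 47.1 and 43.0 in GALNT7 OE, from 25 to 277 reads a library. No library of either group came near the other group. The mean went from 273 ± 13.4 to 38.4 ± 11.7 (SD, n=3), which is a log2 difference of -2.85 (SE 0.243, 95% interval -3.42 to -2.27, limma adjusted p=1.5e-04).

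ITGB4, the hemidesmosome chain, fell from 1672, 1415 and 1865 to 1057, 999 and 851, a log2 fold change of -0.76 (SE 0.124, limma adjusted p=0.0027), again without overlap. ITGB5, a vitronectin-binding partner of ITGAV, fell least, from 2674, 2640 and 2765 to 2384, 2186 and 2347. Its log2 fold change was -0.22 (SE 0.0530, limma adjusted p=0.013), and the groups did not overlap. ITGB6, the ITGAV partner that activates TGF-beta in injured epithelium, was at 0 to 2 reads in all 6 libraries and was not tested. For each of the 8 members whose groups were separate, an exact two-sided permutation test of the 3 libraries against 3 gave p=0.1, the smallest that this design allows.

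In CWR22Rv1 cells with GALNT7 KD, no member passed the threshold. Of the 9 tested, 0 were called by limma, and edgeR and DESeq2 on the recovered reads also called 0. Over all 17906 genes tested, 9.06% were called, 5.28% higher and 3.79% lower. At an unadjusted p under 0.05 there were 3 members (ITGA2, ITGA5 and ITGB8), against 26.1% of all genes. The groups did not overlap for 2 members (ITGA2 and ITGB8), against 32.5% of all genes. The median log2 fold change was 0.14, beside -0.0063 for all genes.

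**Figure D2:**
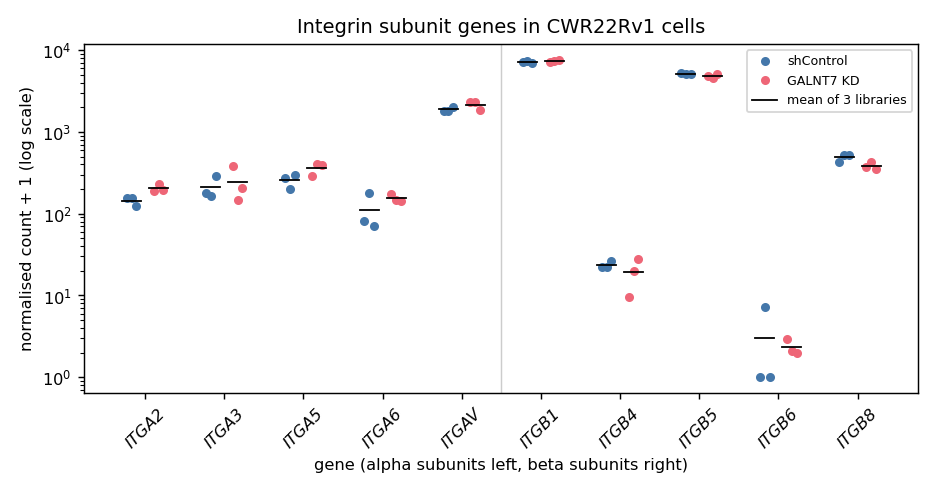
Normalised count plus 1 (log scale) of the 10 integrin genes in each CWR22Rv1 library, alpha subunits on the left and beta subunits on the right. Points are single libraries of shControl and GALNT7 KD cells and bars are means of 3. Most pairs of groups overlap, and ITGB1 and ITGB5 stand highest in both.

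ITGA2 measured 153, 155 and 123 in shControl and 188, 227 and 193 in GALNT7 KD. The groups were separate, and the log2 fold change was 0.50 (SE 0.146, 95% interval 0.15 to 0.84, limma adjusted p=0.084). ITGB8 measured 431.2, 523 and 521 in shControl and 371, 430.9 and 349 in GALNT7 KD, with the highest GALNT7 KD library just under the lowest control. Its log2 fold change was -0.36 (SE 0.124, 95% interval -0.65 to -0.06, limma adjusted p=0.13). ITGA2 was thus measured higher in GALNT7 KD and lower in GALNT7 OE, and ITGB8 lower in both, although neither value in CWR22Rv1 passed the threshold. The difference between the cell lines was not tested, since the manipulation differs with the line.

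ITGA5 measured 273, 202 and 296 in shControl and 287, 405 and 390 in GALNT7 KD, with a log2 fold change of 0.49 (95% interval 0.03 to 0.96, limma adjusted p=0.17). ITGA5 lies on chromosome 12, where the median log2 fold change of the 922 genes tested was -0.28 in this comparison. With each chromosome centred on its own median, the ITGA5 value was 0.76 (adjusted p=0.063). ITGA6 measured 81.2, 180 and 69.6 in shControl and 174, 144 and 143.5 in GALNT7 KD, so that shControl replicate 2 alone lay above the GALNT7 KD libraries. Its log2 fold change was 0.60 (95% interval -0.23 to 1.43, limma adjusted p=0.33), and without shControl replicate 2 it was 1.02 (adjusted p=0.037).

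ITGA3 was uneven between replicates, at 178, 165 and 292 in shControl and 382, 147 and 204 in GALNT7 KD, and its log2 fold change of 0.14 (SE 0.377) had no stable direction. It was -0.24 without GALNT7 KD replicate 1 and -0.016 without shControl replicate 2. The abundant members were bounded more tightly. ITGB1 measured 7106, 7303 and 7017 in shControl and 7188, 7378 and 7600 in GALNT7 KD (log2 fold change 0.05, 95% interval -0.05 to 0.14). ITGB5 measured 5177, 5079 and 5148 against 4886, 4558 and 5114 (log2 fold change -0.08, 95% interval -0.21 to 0.04). ITGAV measured 1789, 1815 and 2038 against 2320, 2303 and 1840 (log2 fold change 0.19, 95% interval -0.06 to 0.44).

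ITGB4 was near the lower limit of measurement in this line, with 9 to 28 reads a library and a mean of 22.8 ± 2.48 in shControl and 18.3 ± 9.17 in GALNT7 KD (SD, n=3). Its log2 fold change was -0.43 (95% interval -1.42 to 0.56), and 0.0048 without GALNT7 KD replicate 1. ITGB6 was at 0, 6.19 and 0 in shControl and at 1.93, 1.07 and 0.963 in GALNT7 KD and was not tested.

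**Figure D3:**
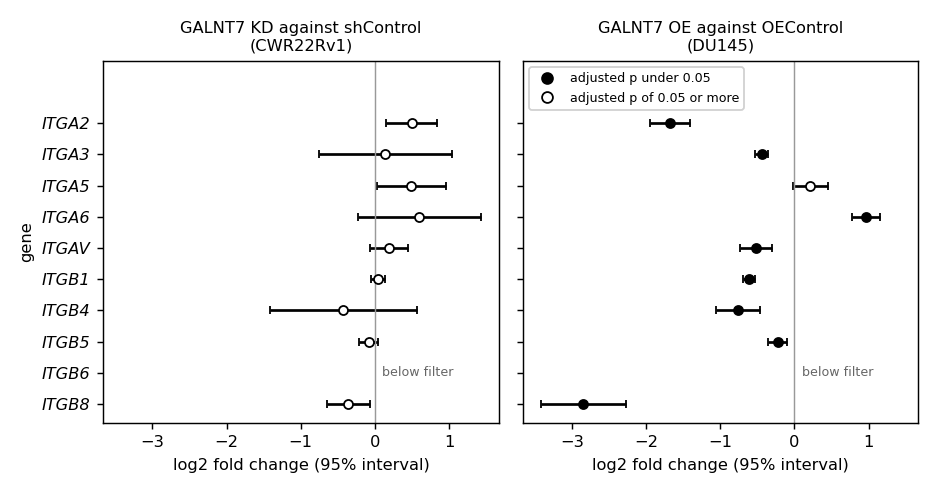
Log2 fold change of each member with its 95% interval from limma, for GALNT7 KD against shControl on the left and GALNT7 OE against OEControl on the right. Filled points have an adjusted p under 0.05: 0 of 9 on the left and 8 of 9 on the right, where ITGA6 is the filled point above 0.

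To set genes beside each other, normalised counts were divided by the exon length in kb. This length merges all annotated exons of a gene, so it can exceed that of the transcript in use. The order of genes at close levels, and the shares and ratios below, depend on it. The SDs cover only the spread between libraries. In shControl cells the order per kb was ITGB1 (1188 ± 24.3, SD, n=3), ITGB5 (796 ± 7.89) and ITGAV (229 ± 16.7), each separate from the next. ITGA5, ITGB8, ITGA3, ITGA2 and ITGA6 followed at means of 33.9 to 16.9 per kb, where each overlapped its neighbour in the order. ITGB4 was at 3.37 ± 0.367 per kb and ITGB6 at 0.440 ± 0.762.

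In OEControl cells the order per kb was ITGB1 (17979 ± 359, SD, n=3), ITGA3 (3074 ± 84.9) and ITGAV (465 ± 41.6), again without overlap between neighbours. ITGB5, ITGA5 and ITGA2 overlapped in turn at means of 418, 394 and 383 per kb, and ITGA6 (306), ITGB4 (244), ITGB8 (18.0) and ITGB6 (0.211) came after. In GALNT7 OE cells ITGB1 (11767 ± 505) and ITGA3 (2265 ± 86.5) were again the highest, and ITGA6 stood next at 597 ± 35.6 per kb. ITGA2 was at 120 ± 19.7 per kb there, overlapping ITGB4 at 143 ± 15.8, and ITGB8 was at 2.53 ± 0.774.

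The make-up of the receptor set can be read from these levels as shares, which describe mRNA and not dimers on the surface. Of the summed level per kb of the 5 alpha subunits in DU145, ITGA3 made up 66.5% ± 1.08 in OEControl and 60.1% ± 1.72 in GALNT7 OE (SD, n=3). ITGA6 made up 6.61% ± 0.450 and 15.9% ± 0.629, and ITGA2 8.29% ± 0.146 and 3.19% ± 0.450. For each of these 3 genes the shares of the groups did not overlap. The same held for ITGA5, at 8.53% ± 0.790 and 12.2% ± 1.14, although its own level did not pass the threshold. Shares of the same sum depend on each other, so a share can move when only other genes change.

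The ratio of ITGA6 to ITGB4, the chains of the hemidesmosome receptor, was 1.26, 1.57 and 1.01 in OEControl and 3.63, 3.97 and 5.06 in GALNT7 OE, with ITGA6 higher and ITGB4 lower in GALNT7 OE. The ratio of ITGB1 to the summed alpha subunits was 3.89 ± 0.0350 in OEControl and 3.12 ± 0.0663 in GALNT7 OE (SD, n=3). In CWR22Rv1 cells ITGAV made up most of the alpha level, at 71.7% ± 0.703 in shControl and 68.2% ± 2.49 in GALNT7 KD.

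ITGB3, ITGB5, ITGB6 and ITGB8 pair with ITGAV, which also pairs with ITGB1. Within these 4, leaving out ITGB1, which was far higher and is shared with many alpha chains, ITGB5 made up 51.5% ± 1.44 of the summed level per kb in OEControl and 70.4% ± 1.08 in GALNT7 OE (SD, n=3). ITGB3, which is not among the 10, made up 46.3% ± 1.41 and 28.97% ± 0.931, and ITGB8 2.22% ± 0.0567 and 0.502% ± 0.164. In CWR22Rv1 cells ITGB5 made up nearly all of this sum, at 95.8% ± 0.620 in shControl and 96.5% ± 0.552 in GALNT7 KD.

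**Figure D4:**
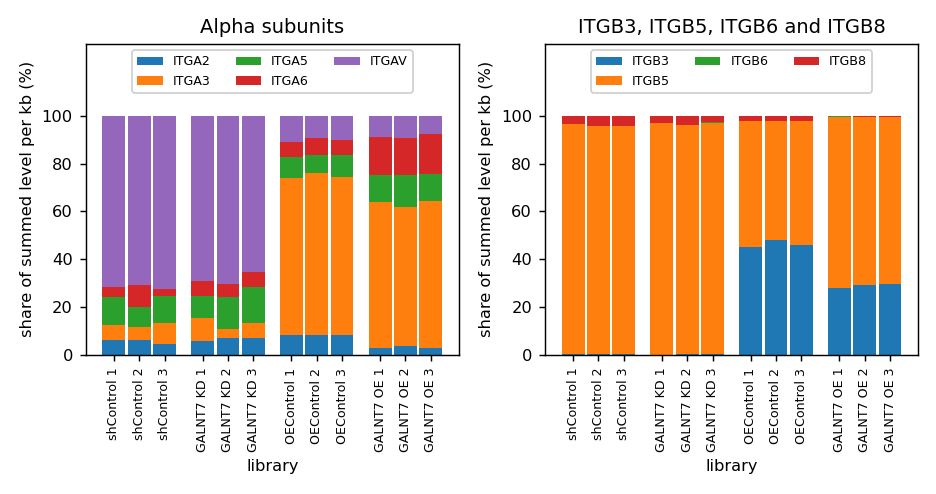
Share (%) of the summed level per kb of the 5 alpha subunits (left) and of the beta subunits ITGB3, ITGB5, ITGB6 and ITGB8, without ITGB1 (right), in each of the 12 libraries. In DU145 the ITGA6 band is wider and the ITGA2 band narrower in GALNT7 OE, and the ITGB3 band is narrower; in CWR22Rv1 ITGAV and ITGB5 fill most of each bar.

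Of the 16 other integrin subunit genes, 12 were tested in DU145. With GALNT7 OE 7 of these fell and 0 rose (58.3% called, against 43.5% of all genes, of which 20.5% lower), with a median log2 fold change of -1.37. ITGB3, the classical vitronectin receptor partner of ITGAV, went from a mean of 1652 to 646 (log2 fold change -1.35, limma adjusted p=1.6e-05). ITGB2, the leukocyte beta chain, went from 5374 to 1824 (-1.56, adjusted p=3.1e-05), and ITGA1, a collagen receptor chain, from 796 to 147 (-2.43, adjusted p=3.7e-05). ITGA9 (-3.35), ITGAX (-3.03), ITGA7 (-1.47) and ITGA10 (-1.39) also fell, while ITGA2B (-0.29), ITGA11 (-0.25), ITGAE (0.13), ITGAM (-0.65) and ITGB7 (0.83) did not pass the threshold. ITGA4, ITGA8, ITGAD and ITGAL were below the filter.

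In CWR22Rv1, 1 of the 12 other subunits tested was called, or 8.33%, near the 9.06% of all genes. ITGA11, a collagen receptor chain of mesenchymal cells, rose from a mean of 34.9 to 98.9 (log2 fold change 1.58, limma adjusted p=0.043). LUM, from the markers of other cell types given above, was higher in the same libraries (1.47, limma adjusted p=0.0016). DCN and COL1A2, from the same markers, added little to their sum. The part of LUM-expressing cells in the ITGA11 value was not tested. The log2 fold changes of the other 11 lay between -1.31 (ITGA7, adjusted p=0.094) and 0.78 (ITGA1, adjusted p=0.61).

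The genes that work with these receptors were taken from lists of matrix ligands, adhesion adaptors and kinases, hemidesmosome and membrane partners, and trafficking genes. With GALNT7 OE in DU145, 19 of the 27 matrix ligand genes tested fell and 4 rose, with a median log2 fold change of -0.55. The lists are to be read against the 20.5% of all genes that fell and the 22.9% that rose. VTN, encoding vitronectin, fell by 3.38 on the log2 scale, COL1A1, a chain of type I collagen, by 2.01, and MFGE8, an RGD protein bound by ITGAV dimers, by 1.41. COL4A5, a basement membrane collagen chain, rose by 2.25 and LAMC1, a laminin gamma chain, by 0.46. Chosen after their values were seen, as ligands of members described above, FN1 (fibronectin) fell by 1.38, and the laminin chain genes LAMB3 and LAMA3 fell by 0.93 and 0.66.

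Of the 34 adaptors and kinases, 12 rose and 10 fell (median -0.05), so that 64.7% were called, against 43.5% of all genes. The 3 largest rises were those of KRIT1, a scaffold that binds an ITGB1 tail protein (0.91), and of FERMT1 and FERMT2, the kindlins that activate beta tails (0.84 and 0.73). Where the normalised count averaged 50 or more, the largest falls were those of NEDD9, a docking protein of adhesion signalling (-2.30), TNS2, a tensin (-1.83), and LIMS2, a partner of integrin-linked kinase (-1.31).

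Of the 13 hemidesmosome and membrane partners, 6 fell and 4 rose (median -0.16), or 76.9% called, against the same 43.5%. The tetraspanins CD82 (-2.02), CD151 (-0.93), which binds ITGA3 and ITGA6 directly, and CD81 (-0.67) fell. CAV1, encoding caveolin-1 (1.21), SLC3A2, encoding the heavy chain that binds beta tails (0.94), and COL17A1, a hemidesmosome collagen (0.67), rose. Of the 15 trafficking genes tested, 2 rose (HAX1, 0.79, and ARF6, 0.36) and 2 fell (the endocytic adaptors DAB2, -0.54, and NUMB, -0.24), with a median of 0.07. This is 26.7% of that list, below the 43.5% of all genes called.

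**Figure D5:**
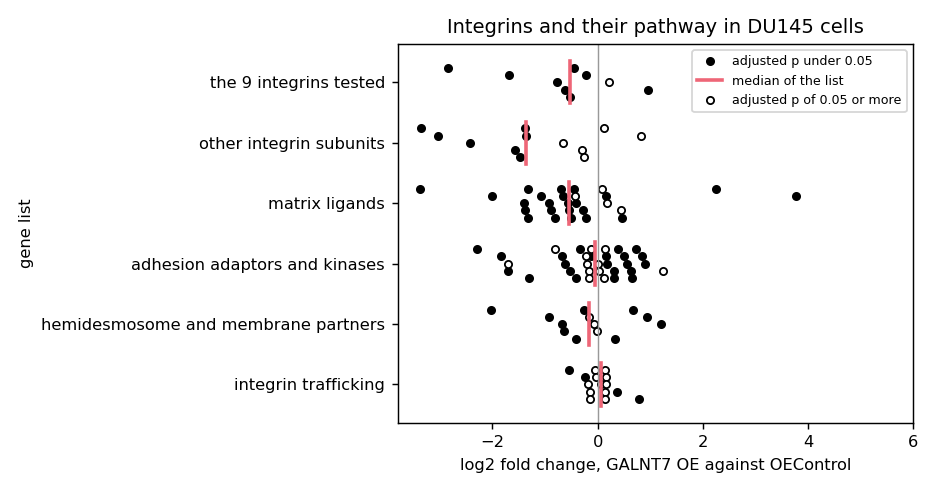
Log2 fold change, GALNT7 OE against OEControl, of the 9 members tested, the other integrin subunits and 4 lists of genes that work with them. Each point is a gene, filled where the adjusted p is under 0.05, and the vertical mark is the median of the list, which is lowest for the other integrin subunits (-1.37).

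With GALNT7 KD in CWR22Rv1, 18 genes of these 5 lists were called in all, the other subunits included. The share was 25.0% of matrix ligands, 21.9% of adaptors and kinases, 15.4% of membrane partners and 6.67% of trafficking genes, against 9.06% of all genes. Among 28 matrix ligands 3 rose, THBS1 (thrombospondin-1, 2.01), COL4A5 (0.72) and FN1 (0.62), and 4 fell, CCN1 (-1.34), COL6A1 (-1.06), NPNT, encoding the ITGA8 ligand nephronectin (-1.04), and CCN2. CCN2, a matricellular protein gene with a mean normalised count under 50 that was chosen after its values were seen, had the largest change of the 7, from a mean of 58.0 to 2.96 (-3.92, limma adjusted p=0.0011). Among 32 adaptors and kinases 4 rose, with TNS3 (1.18), TNS4 (0.93) and LIMS1 (0.55) the largest, and 3 fell, RSU1 (-0.53), RAP1B (-0.30) and ACTN4 (-0.22). CD151 fell by 0.31 and PLAUR, the urokinase receptor gene, rose by 0.68 among the 13 membrane partners, and RAB21, a GTPase of integrin recycling, fell by 0.35 among 15 trafficking genes. RAP1B and RAB21 lie on chromosome 12, where the median log2 fold change of the genes tested was -0.28, near the values of both. The total of 18 was 5 without shControl replicate 1, 11 without shControl replicate 2, 10 without shControl replicate 3, 6 without GALNT7 KD replicate 1 and 10 without GALNT7 KD replicate 2.

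Several members share their locus with another gene. ITGB4 overlaps GALK1 on the opposite strand, which averaged 434 normalised counts in both cell lines, far above ITGB4 itself in CWR22Rv1. ITGB1 overlaps ITGB1-DT (mean 92.9 in DU145), ITGA6 overlaps AC078883.1 (11.9 in DU145) and ITGB8 overlaps AC004130.1 (22.9 in CWR22Rv1 and 5.02 in DU145), each on the opposite strand. Of the other subunits that fell in DU145, ITGA7 overlaps BLOC1S1 (mean 1214 in CWR22Rv1 and 739 in DU145) and METTL7B (789 and 205). ITGB2 overlaps ITGB2-AS1 (222 in DU145). These too lie on the opposite strand. The library kit keeps the strand, but whether the counting used it is not given in the sources used here. On their own strand, ITGB3 overlaps AC068234.1 (mean 114 in DU145) and ITGA1 overlaps PELO (633 in DU145), so the split of reads between these genes is uncertain.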

How the data were processed

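RNA-seq libraries from 12 cultures of established prostate cancer cell lines were analysed, 3 per group. The authors deposited 1 table of normalised counts per cell line, a signal in which the read number of a gene has been divided by the library's size factor. The submitters' processing notes name FastQC, Salmon, DESeq2 and R 3.5.3 and the build hg38, with no role or order. Every value was a whole multiple of the smallest value above 0, and 100% of values came out as whole numbers within 0.001. These numbers are called reads here, although the notes do not say whether they were counted reads or rounded estimates. No pair of replicates agreed within sampling noise (chi-square per gene 8.85 to 24.2). Where nothing says that replicates came from separate transductions, p-values measure only the spread between these cultures.

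Gene names, positions and exon lengths were taken from GENCODE 29 (GRCh38), and upstream windows from RefSeq (GRCh38.p14). Models were fitted to each line separately (limma 3.58.1 under R 4.3.3, with lmFit and trended eBayes). The response was log2(normalised count + 1) and a gene's mean had to be at least 5, with Benjamini-Hochberg adjustment over all genes tested and a threshold of 0.05. Fold changes on this scale understate those of genes with few reads. Alternatives were other pseudocounts, filters, scalings and thresholds, a replicate block, chromosome centring, each library left out, and the count models of edgeR 4.0.16 and of DESeq2 1.42.0 run on whole reads. The tests were tried on simulated counts.

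The members and lists were chosen with earlier results of these data known. Genes named were the 10 members, GALNT7, every other integrin subunit tested, the markers, and from each other list up to 3 genes per direction with the largest change past the threshold and a mean normalised count of at least 50. Genes outside this rule are marked in the text as chosen after their values were seen. Some genes under this rule are not reported here, although counts of genes include them.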

Additional observations from a re-analysis of the deposited data

How the results depend on the processing

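In DU145, each of the 8 called members kept its direction and its call under all 20 alternatives, except ITGB5, which missed a threshold of 0.01 (adjusted p=0.013) and came to 0.04996 at most elsewhere. In CWR22Rv1, the count of members called was 0 under every alternative but 1, and ranged from 0 to 1 with each library left out, ITGA6 being called without shControl replicate 2. With each library left out, ITGA3 ranged from -0.24 to 0.44, with -0.016 without shControl replicate 2, and ITGB4 from -0.76 to 0.0048, so both changed sign. The count of list genes called in CWR22Rv1, 18, was 27 with DESeq2, 12 with no filter beyond a value above 0 and 11 by eBayes without a trend. It was 5 at a threshold of 0.01, and ranged from 5 to 17 with each library left out. The cause was not tested.

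Whether replicate numbers pair the libraries was not settled by these data. Same-numbered deviations correlated at -0.011, 0.075 and -0.0057 in CWR22Rv1 and at 0.043, 0.043 and 0.016 in DU145. All 3 numbers in DU145 and 1 of 3 in CWR22Rv1 correlated best with their own number. With the replicate block, 0 members were called in CWR22Rv1 and 8 in DU145, and genes called over all went from 1623 to 1002 and from 8132 to 7405. Over all genes, calls in CWR22Rv1 ranged from 539 to 1336 with each library left out, were 996 by eBayes without a trend and 2666 with DESeq2. Few reads limit ITGB4 in CWR22Rv1 and ITGB6 in both lines.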
